A study of Mus musculus with 4 samples.

Results

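Among conventional dendritic cells type 1 (cDC1) of mouse spleen, 272 cells carried high Ccr2 RNA and little surface CD8a. These members were chosen by their own Ccr2, Ccr7 and antibody counts, and they are set here against other cDC1 of the same libraries. They made up 130 of 6081 Ccr7-low cDC1 in library 1 (2.14%, exact 95% binomial interval 1.79 to 2.53) and 142 of 9175 in library 2 (1.55%, 1.31 to 1.82), out of 31790 cell barcodes in all. The label calls them early cDC1, a name for their markers, since no measure of time or cell age was taken. Every cell came from the spleens of WT mice of strain C57BL6 at steady-state, so the classes share genotype, strain and treatment, and the labels give no age. Dendritic cells of a pair of mice were enriched, stained with oligonucleotide-tagged antibodies and sorted as cDC1, cDC2 and random live cells before loading, so the shares of cell types reflect the sort. Whether each of the 2 libraries holds the cells of 1 mouse is not given in the labels.

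A member had at least 500 genes, at least 1000 RNA UMIs (unique molecular identifiers, each standing for 1 captured molecule) and under 10% mitochondrial UMIs. It had at least 2 XCR1 antibody UMIs, at most 2 CD172a antibody UMIs and more XCR1 than CD172a, which is the cDC1 gate. It also had at least 3 Ccr2 RNA UMIs, at most 25 CD8a antibody UMIs and at most 1 Ccr7 UMI, which leaves out mature cells. The main comparison class, CD8a-high Ccr2-0 cDC1, passed the same XCR1, CD172a and Ccr7 gates with no Ccr2 UMI and at least 60 CD8a UMIs, and held 3202 and 5310 cells in libraries 1 and 2. CD8a-low Ccr2-0 cDC1 (583 and 600 cells) shared the members' CD8a band, and Ccr2-high CD8a-high cDC1 (41 and 100 cells) shared their Ccr2 gate. All 4 classes came from the same libraries, and the 3 comparisons share the members.

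Conventional dendritic cells take up antigen and present it to T cells, and cDC1 are the subset known for cross-presenting dead-cell antigen to CD8 T cells. They arise in bone marrow from precursors that travel through blood and seed the spleen, where most mouse cDC1 carry CD8a on their surface. CCR2 is the receptor of the chemokine CCL2 and is best known for letting monocytes leave bone marrow. Vim encodes vimentin, an intermediate filament protein, Ahnak a large scaffold protein, S100a10 the partner of annexin A2, and Serpinb10 an intracellular protease inhibitor.

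The surface measurement rests on short DNA tags: each antibody carries a barcode that is captured and counted with the cell's RNA. The 15-base barcodes below are those of the 3 antibodies that set the gate and of the antibodies whose levels moved among the most or stood highest, in capitals throughout because every base identifies the antibody.
XCR1 (gate): TCCATTACCCACGTT
CD172a (gate): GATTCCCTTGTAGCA
CD8a (gate): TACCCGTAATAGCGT
CD226 (higher in members): ACGCAGTATTTCCGA
CD300LG (higher in members): CGGTCCGTATCATTT
CD43 (higher in members): TTGGAGGGTTGTGCT
CD11b (higher in members): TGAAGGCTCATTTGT
CD201 (lower in members): TATGATCTGCCCTTG
CD38 (lower in members): CGTATCCGTCTCCTA
CD39 (lower in members): GCGTATTTAACCCGT
CD1d (lower in members): CAACTTGGCCGAATC

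Members had a median of 7994.5 and 7509.5 RNA UMIs per cell in libraries 1 and 2, against 9724 and 8445 in CD8a-high Ccr2-0 cDC1, and 874.5 and 725 antibody UMIs against 1228 and 1076 in CD8a-high Ccr2-0 cDC1. Scrublet, a doublet caller, marked 0 of 130 and 3 of 142 members (0% to 2.80% and 0.438% to 6.05%, exact 95% intervals), and 61 barcodes occurred in both libraries but none among members of both. A member of 1 library shared its barcode with a cell of the other. Other cells' marker lists were summed in counts per 1000000 UMIs (CPM), and the neutrophil list gave 45.9 and 41.9 CPM in members, against 44.7 and 119.8 CPM in CD8a-high Ccr2-0 cDC1. The 10 erythroid genes summed to 2378 and 61.5 CPM in members, against 351 and 487 CPM in CD8a-high Ccr2-0 cDC1, and a single member of library 1 held 96.9% of the members' Hbb-bs UMIs. None of the 10 was called in the main comparison by edgeR. The monocyte list summed to 2861 and 2660.4 CPM in members, against 2212 and 2165.7 CPM in CD8a-high Ccr2-0 cDC1, with 5 of 9 tested genes higher and 1 lower. Among the called genes, F13a1 had all 7 of its member UMIs in 1 cell. The cDC2 list summed to 45.1 and 49.9 CPM in members, against 26.4 and 28.4 CPM in CD8a-high Ccr2-0 cDC1. Of its 5 tested genes 2 were higher, Cd209a and Ccl6, and none lower. For Cd209a, 54.5% of the 11 member UMIs were in 1 cell. The NK cell list summed to 6.93 and 157 CPM in members, against 24.2 and 42.7 CPM in CD8a-high Ccr2-0 cDC1, with Ncr1 called and 56.3% of its member UMIs in 1 cell. The plasma cell list summed to 87.5 and 101 CPM in members, against 121 and 191 CPM in CD8a-high Ccr2-0 cDC1, and the B cell list to 229 and 269.9 CPM in members, against 366 and 232 CPM in CD8a-high Ccr2-0 cDC1. Their part in the results was not tested.

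cDC1 markers were present in the members' RNA, while surface XCR1 was fixed by the gate. XCR1 had a median of 3 antibody UMIs in members of each library, against 7 in CD8a-high Ccr2-0 cDC1. An RNA filter of at least 3 UMIs over 8 cDC1 markers and at most 1 over 9 markers of other cells passed 124 of 130 and 132 of 142 members. The same filter passed 3082 of 3202 and 5124 of 5310 CD8a-high Ccr2-0 cells and 530 of 583 and 544 of 600 CD8a-low Ccr2-0 cells. Irf8 is among the 8 markers, so Irf8 UMIs alone can meet the first limit. Irf8, the transcription factor that cDC1 depend on, averaged 2212 ± 185 CPM in members and 2195 ± 117 CPM in CD8a-high Ccr2-0 cDC1 (SD, n = 2 libraries each). The cDC1 factor Batf3 had 289 and 315 CPM in members, against 282 and 282 CPM in CD8a-high Ccr2-0 cDC1 (log2 0.033, SE 0.087, adjusted p = 0.858). Xcr1 RNA, which pairs with the gated antibody and is given without a test, had 357 and 390.1 CPM in members, against 517 and 591 CPM in CD8a-high Ccr2-0 cDC1. The summed level of the other 7 cDC1 markers, Irf8 among them, was 4228 and 4572 CPM in members, against 4986 and 5303 CPM in CD8a-high Ccr2-0 cDC1. Of these 7 markers 4 were called lower in members (Clec9a, Cadm1, Wdfy4 and Naaa) and none higher. The classes overlapped on Irf8, while Xcr1 and the marker sum lay lower in both member libraries.

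Of the 5 genes that mark the cells, none counts as a result, because Ccr2 set the gate and the others were named from earlier results of these data. Ccr2 had 446 and 483 CPM in members and 0 by rule in CD8a-high Ccr2-0 cDC1. Vim had 1089.6 and 1093 CPM in members, against 148 and 160.4 CPM in CD8a-high Ccr2-0 cDC1. Ahnak had 238 and 266 CPM in members, against 48.9 and 62.3 CPM in CD8a-high Ccr2-0 cDC1. No member library reached down to a CD8a-high one for these genes. S100a10 had 269.6 and 265 CPM in members, against 27.6 and 30.5 CPM in CD8a-high Ccr2-0 cDC1, and Serpinb10 had 123 and 92.6 CPM in members, against 15.1 and 10.6 CPM in CD8a-high Ccr2-0 cDC1. Per cell, Vim ran from 0 to 108 UMIs among members of library 2, with a median of 5, and 11 of the 142 had none. Vim was detected in 91.5% and 92.3% of members, against 39.7% and 40.4% of CD8a-high Ccr2-0 cells. Serpinb10 was detected in 53.8% and 42.3% of members, against 9.87% and 6.72% in CD8a-high Ccr2-0 cDC1, so it was the least uniform of the markers by this share. In cDC2 of the same libraries, gated on CD172a, Vim stood at 295.5 and 313.4 CPM and Ccr2 at 37.1 and 29.97 CPM, below the members.

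Ccr2 and CD8a set the gate, so how they relate is a description. Of cells with at least 3 Ccr2 UMIs, 59.4% and 44.2% had at most 25 CD8a UMIs, against 11.4% and 7.63% of cells with none. Over all Ccr7-low cells of the cDC1 gate, split by CD8a alone, Ccr2 stood at 178 and 205 CPM in the band of 0 to 10 CD8a UMIs and at 6.91 and 10.1 CPM at 150 or more. Anxa2 stood at 358 and 437 CPM in the lowest band and 52.9 and 57.4 CPM in the highest. Clec9a, the receptor for actin of dead cells, ran the other way, with 183 and 166 CPM in the lowest band and 318 and 347 CPM in the highest. The median depth was 6992 and 6358 RNA UMIs in the lowest band and 11371 and 10044 in the highest, and its part was not tested.

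**Figure D1:**
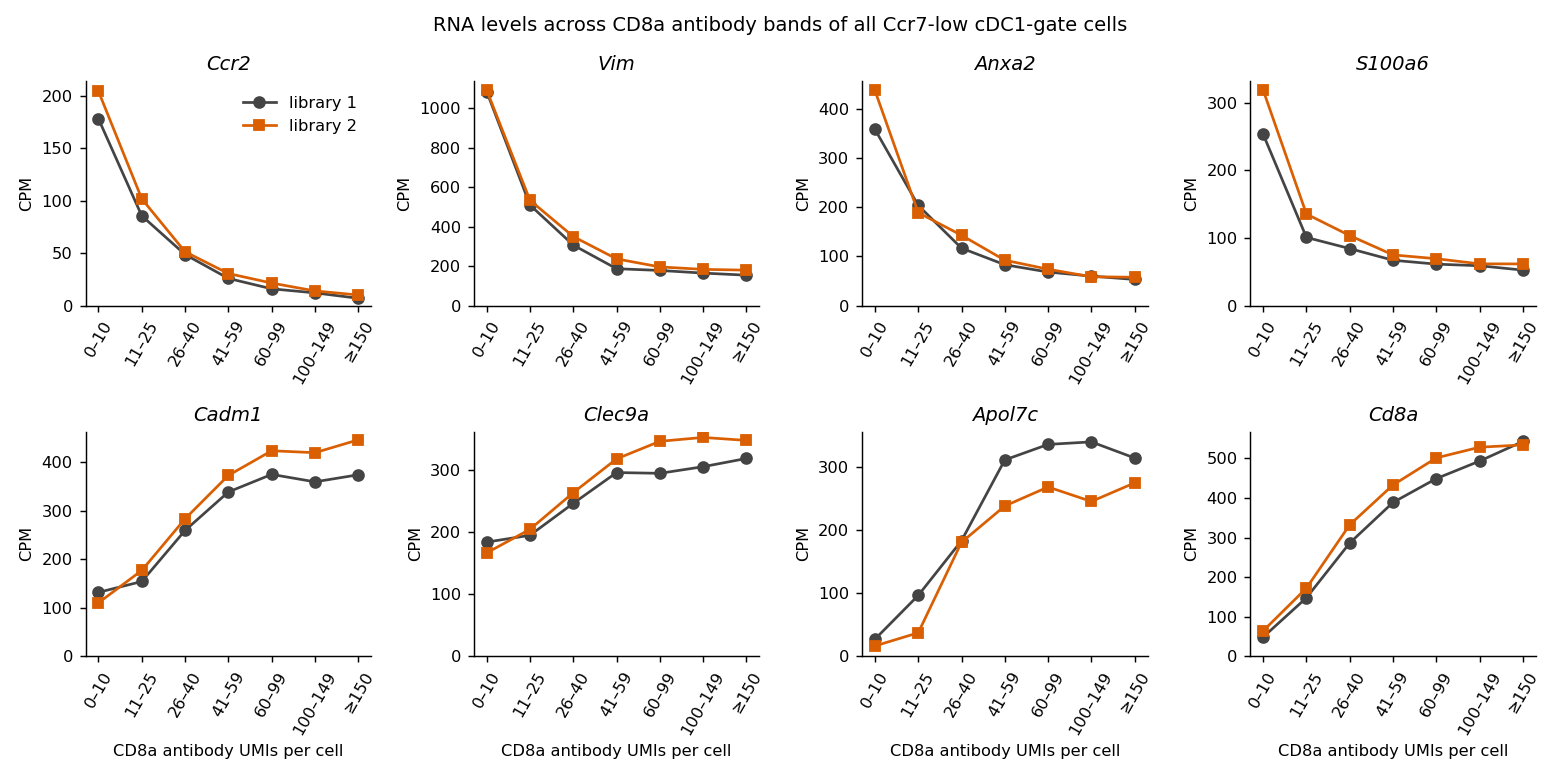
RNA level in CPM (y axis) of 8 genes in 7 bands of CD8a antibody UMIs per cell (x axis), over all Ccr7-low cells of the cDC1 gate with no Ccr2 cut, 1 line per library. Ccr2, Vim, Anxa2 and S100a6 are highest in the band of 0 to 10 UMIs and low from 60 UMIs on, and Cadm1, Clec9a, Apol7c and Cd8a run the other way in both libraries.

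To compare classes, RNA UMIs were summed per class and library and fitted with edgeR's quasi-likelihood test, with the library as a term and Benjamini-Hochberg adjustment over 10181 genes. Calls are at an adjusted p under 0.05, and p-values measure the spread between sums of 2 libraries, which may be technical. Against CD8a-high Ccr2-0 cDC1, members were higher in 705 genes and lower in 749, which is 14.3% of the genes tested (6.92% higher and 7.36% lower). Without the library term 924 genes were called, 422 higher and 502 lower. Of the 1454 genes, 1452 kept their direction in library 1 alone and 1451 in library 2 alone, though the calls already rested on both libraries.

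Gpr183, Anxa2 and S100a6 were among the 12 genes that rose most. Gpr183, the oxysterol receptor EBI2 that positions dendritic cells in the spleen, had 61.5 and 49.0 CPM in members, against 10.6 and 9.74 CPM in CD8a-high Ccr2-0 cDC1 (log2 2.39, SE 0.26, adjusted p = 6.46e-07). Both libraries of members lay above both of the other class. Anxa2, annexin A2, which binds S100a10 at membranes, had 397 and 382 CPM in members, against 55.1 and 53.1 CPM in CD8a-high Ccr2-0 cDC1 (log2 2.78, SE 0.11, adjusted p = 3.45e-14). S100a6, a calcium-binding protein, had 224 and 267 CPM in members, against 52.4 and 57.2 CPM in CD8a-high Ccr2-0 cDC1 (log2 2.10, SE 0.14, adjusted p = 1.49e-10). Neither gene's classes overlapped.

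Tnfrsf13b, Klrd1, Fcer1g and Ms4a6c were also among the 12. Tnfrsf13b, the receptor TACI for the B-cell factors BAFF and APRIL, had 36.4 and 22.3 CPM in members, against 2.46 and 2.41 CPM in CD8a-high Ccr2-0 cDC1 (log2 3.54, SE 0.29, adjusted p = 5.02e-09). In library 2 alone its log2 ratio was 2.77, with 1 CPM added to each class. All single-library log2 ratios of genes carry this added 1 CPM, which shrinks them where levels are low. Its 67 member UMIs were spread over 54 cells. Klrd1, the lectin-like receptor CD94, had 29.5 and 42.8 CPM in members, against 5.07 and 5.83 CPM in CD8a-high Ccr2-0 cDC1 (log2 2.66, SE 0.29, adjusted p = 5.17e-07), and Fcer1g, the signalling chain of Fc receptors, had 156 and 182 CPM in members, against 29.9 and 35.5 CPM in CD8a-high Ccr2-0 cDC1 (log2 2.30, SE 0.14, adjusted p = 3.13e-11). In cDC2 these 3 genes stood higher than in members, at 56.8 and 52.2 CPM for Tnfrsf13b, 297.1 and 231.6 CPM for Klrd1 and 1244 and 1348 CPM for Fcer1g. Ms4a6c, a tetraspan membrane protein of myeloid cells, had 143 and 126 CPM in members, against 33.3 and 27.6 CPM in CD8a-high Ccr2-0 cDC1 (log2 2.08).

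The interferon-inducible nuclear genes Ifi203 and Mndal and the transcription regulators Cebpa and Lmo1 complete the list. Ifi203 had 71.9 and 72.1 CPM in members, against 8.12 and 6.49 CPM in CD8a-high Ccr2-0 cDC1 (log2 3.25, SE 0.19, adjusted p = 1.65e-11), and Mndal 105 and 76.6 CPM in members, against 11.1 and 11.5 CPM in CD8a-high Ccr2-0 cDC1 (log2 2.95, SE 0.15, adjusted p = 2.35e-12). The paralogs of this family sit side by side in the genome and are alike in sequence, so how reads were split between them is uncertain. Cebpa, a factor of the myeloid lineage, had 15.6 and 25.8 CPM in members, against 4.91 and 3.16 CPM in CD8a-high Ccr2-0 cDC1 (log2 2.31, SE 0.35, adjusted p = 5.45e-05). Library 1 alone gave 1.49 with 1 CPM added to each class. Lmo1, a LIM-domain cofactor, had 60.7 and 62.3 CPM in members, against 13.2 and 15.5 CPM in CD8a-high Ccr2-0 cDC1 (log2 2.03, SE 0.14, adjusted p = 2.79e-10). For all 4 genes the members' libraries lay above those of CD8a-high Ccr2-0 cDC1, while CD8a-low Ccr2-0 cDC1 reached 19.2 CPM for Cebpa in library 1. cDC2 stood above members in both libraries for S100a6 (830 and 850 CPM), Gpr183 (188 and 203), Ms4a6c (474 and 478) and Ifi203 (85.6 and 104). In cDC2 Anxa2 (175 and 196 CPM), Cebpa (15.4 and 13.5) and Lmo1 (9.96 and 13.7) stood below members, and Mndal (89.7 and 112) overlapped.

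The 12 genes that fell most were led by Apol7c, an apolipoprotein L gene that dendritic cells express. Apol7c had 19.1 and 6.23 CPM in members, against 349 and 277 CPM in CD8a-high Ccr2-0 cDC1 (log2 -4.70, SE 0.26, adjusted p = 4.77e-12). Apoe, the lipid carrier apolipoprotein E and a target of the nuclear receptor LXR, had 7.80 and 7.13 CPM in members, against 82.3 and 78.5 CPM in CD8a-high Ccr2-0 cDC1 (log2 -3.49, SE 0.31, adjusted p = 1.52e-08). Both were far below the CD8a-high class in each library. Cd207, the lectin langerin, rested on 3 UMIs in members, against 2284 in CD8a-high Ccr2-0 cDC1, a log2 ratio of -4.46 with a 95% counting interval of -6.74 to -2.91. Ptgis, the prostacyclin synthase, had 1.73 and 1.78 CPM in members, against 28.2 and 28.5 CPM in CD8a-high Ccr2-0 cDC1 (log2 -4.06, SE 0.45, adjusted p = 5.65e-07). Libraries 1 and 2 alone gave -3.42 and -3.40 with 1 CPM added to each class, which shrinks a ratio at levels this low.

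Ier3, Egr2 and Ccl2 were also among the 12 that fell most. Ier3 had 12.1 and 12.5 CPM in members, against 75.9 and 124 CPM in CD8a-high Ccr2-0 cDC1 (log2 -3.07, SE 0.28, adjusted p = 2.69e-08), and Egr2, an activity-induced transcription factor, 19.9 and 12.5 CPM in members, against 74.7 and 118 CPM in CD8a-high Ccr2-0 cDC1 (log2 -2.62, SE 0.24, adjusted p = 2.07e-08). Ccl2, the ligand of CCR2, had 0.867 and 4.45 CPM in members, against 18.3 and 22.6 CPM in CD8a-high Ccr2-0 cDC1 (log2 -3.01, SE 0.43, adjusted p = 2.27e-05). Members lay below the CD8a-high class for all 3 in each library. St6gal1, a sialyltransferase, had 4.33 and 3.56 CPM in members, against 34.1 and 35.1 CPM in CD8a-high Ccr2-0 cDC1, and Flt1, a receptor of VEGF, 6.07 and 1.78 CPM in members, against 26.5 and 26.8 CPM in CD8a-high Ccr2-0 cDC1. Adam23 stood at 14.7 and 13.4 CPM in members, against 94.0 and 104 CPM in CD8a-high Ccr2-0 cDC1, Dkk3 at 3.47 and 1.78 CPM in members, against 22.9 and 25.5 CPM in CD8a-high Ccr2-0 cDC1, and Fndc5 at 5.20 and 10.7 CPM in members, against 53.9 and 83.3 CPM in CD8a-high Ccr2-0 cDC1. They fell by 2.88, 3.26 and 3.17 on the log2 scale, Dkk3 resting on 6 member UMIs. With 1 CPM added to each class, library 1 alone gave log2 -2.42 for Dkk3, -1.96 for Flt1 and -1.85 for Egr2. Library 2 alone gave -2.11 for Ccl2 on the same scale.

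**Figure D2:**
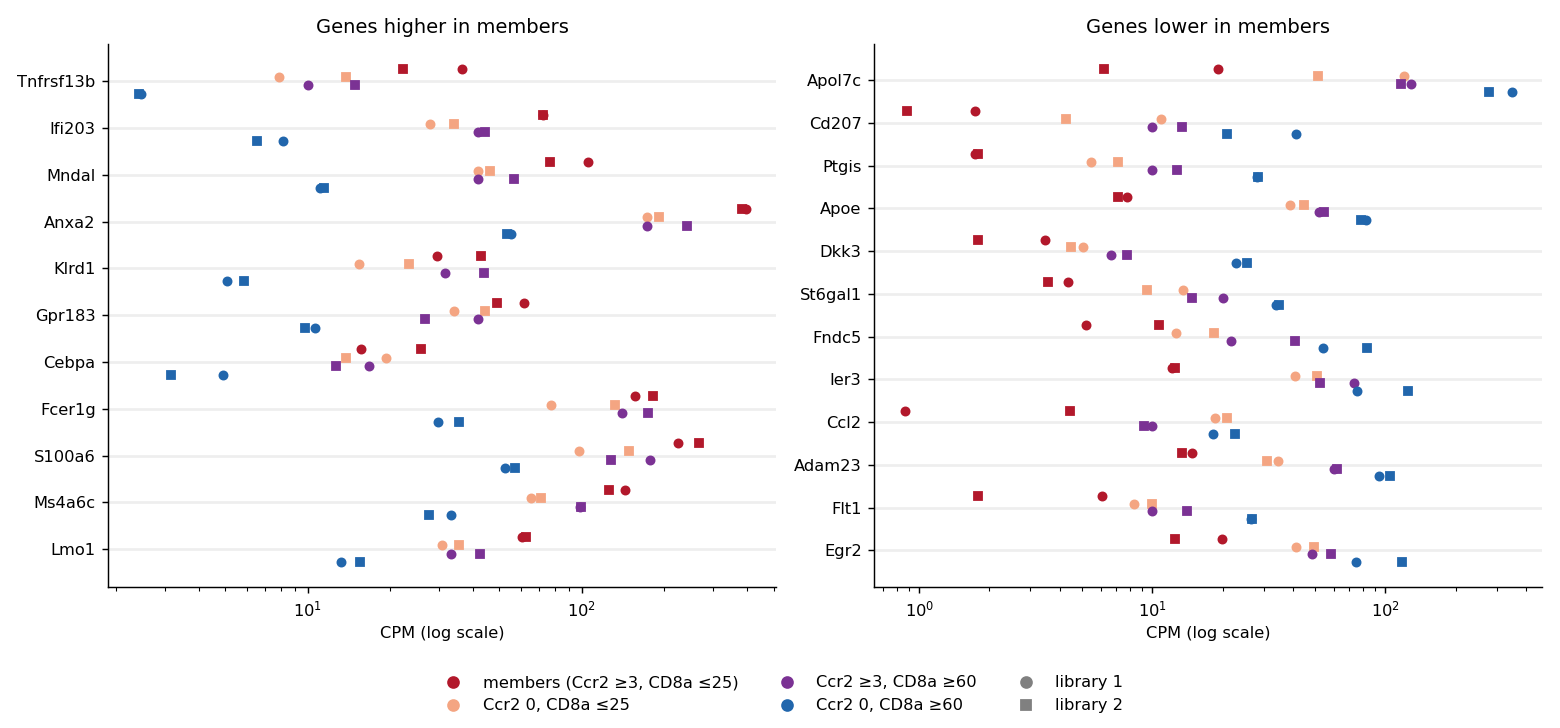
RNA level in CPM (x axis, log scale) of 11 of the 12 genes that rose most and the 12 that fell most in members, by class (colour) and library (marker shape). In both libraries members lie above CD8a-high Ccr2-0 cDC1 for each gene of the first set and below it for each of the second, and for Klrd1, Fcer1g and Cebpa another class reaches the members' range.

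Fewer genes were called when either side of the gate was shared. Against CD8a-low Ccr2-0 cDC1, 120 genes were higher and 158 lower in members (2.73% of those tested, 1.18% and 1.55%). Against Ccr2-high CD8a-high cDC1, 43 were higher and 50 lower (0.913%, 0.422% and 0.491%). Anxa2 differed in both, with 172 and 191 CPM in the first of these classes (log2 1.07, SE 0.11, adjusted p = 2.11e-06) and 173 and 241 CPM in the second (log2 0.92, SE 0.13, adjusted p = 0.000251). Apol7c did too, with 119.8 and 51.3 CPM (log2 -2.76, SE 0.31, adjusted p = 5.66e-06) and 128 and 117 CPM (log2 -3.30, SE 0.33, adjusted p = 5.85e-06), and so did Apoe, with 38.9 and 44.9 CPM (log2 -2.52, SE 0.37, adjusted p = 0.000327) and 51.7 and 54.4 CPM (log2 -2.83, SE 0.42, adjusted p = 0.000553). Klrd1, Gpr183, Cebpa, Ptgis, Dkk3 and Flt1 passed neither in the same edgeR fit. Tnfrsf13b, Ifi203, Fcer1g, Ms4a6c, Lmo1 and Ccl2 passed against the first class but not against the second, and Fndc5 only against the second. Klrd1 had log2 0.87 (SE 0.28, adjusted p = 0.101) in the first and -0.064 (SE 0.31, adjusted p = 0.973) in the second. Gpr183 had log2 0.47 (SE 0.25, adjusted p = 0.38) and 0.87 (SE 0.34, adjusted p = 0.278), the latter near the fold of Anxa2 with a larger SE. Without the library term, 74 and 20 genes were called in these comparisons. Other cells' markers moved with the first of these classes: CD8a-low Ccr2-0 cDC1 had 1613 and 2196 CPM over the neutrophil list and 1523 and 2310.4 CPM over the plasma cell list. With the RNA identity filter its count was 152, of which 108 were shared with the 278. Depth moved with the second, since Ccr2-high CD8a-high cells had medians of 14012 and 13982 RNA UMIs. Leaving out Scrublet doublets left 35 and 80 of the 41 and 100 cells of this second class, and 84 genes were then called against it. Its NK cell list summed to 193 and 505 CPM. Both classes also held fewer cells than CD8a-high Ccr2-0 cDC1. The part of depth, other cells' markers and class size in the counts was not tested.

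The levels of the given markers Vim and S100a10, described without a test, lay between in the other classes. Vim had 1089.6 and 1093 CPM in members, 488 and 504 CPM in CD8a-low Ccr2-0 cDC1, 602 and 528 CPM in Ccr2-high CD8a-high cDC1 and 148 and 160.4 CPM in CD8a-high Ccr2-0 cDC1. S100a10 had 269.6 and 265 CPM in members, 108 and 126 CPM in CD8a-low Ccr2-0 cDC1, 180.1 and 149.6 CPM in Ccr2-high CD8a-high cDC1 and 27.6 and 30.5 CPM in CD8a-high Ccr2-0 cDC1. For both genes members stood highest and CD8a-high Ccr2-0 cDC1 lowest in each library.

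The gene lists were read against the 14.3% of all genes called in the comparison with CD8a-high Ccr2-0 cDC1, where the median log2 fold change over all genes was 0.0091. Of the 24 tested genes of the vimentin, S100, annexin and galectin list, 11 rose and 2 fell (median log2 0.32). The list left out the given markers but was chosen with their values known. Lgals1, galectin 1, had 226 and 261 CPM in members, against 63.0 and 58.6 CPM in CD8a-high Ccr2-0 cDC1 (log2 1.93, SE 0.11, adjusted p = 5.47e-12), and Emp3, an epithelial membrane protein family gene, 335 and 289 CPM in members, against 94.5 and 87.8 CPM in CD8a-high Ccr2-0 cDC1 (log2 1.71, SE 0.09, adjusted p = 3.19e-12). Crip1, a LIM protein, had 2028 and 1887 CPM in members, against 1050.3 and 1094 CPM in CD8a-high Ccr2-0 cDC1 (log2 0.81, SE 0.057, adjusted p = 2.63e-10). These lay above the other class in each library, by less than Anxa2 on the log2 scale. Txn1, the thioredoxin gene, and Lgals3, galectin 3, fell by 0.64 and 0.36 on the log2 scale. Set against CD8a-low Ccr2-0 cDC1, 8 genes of the list rose and 2 fell. Those 2 were S100a8 and S100a9, which belong to neutrophils, with S100a8 at 18.2 and 16.03 CPM in members, against 433 and 605 CPM in CD8a-low Ccr2-0 cDC1 (log2 -5.02, SE 0.41, adjusted p = 3.78e-08). With Ccr2-high CD8a-high cDC1, 7 rose and Txn1 fell.

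Of 17 tested entry and tissue homing receptors, 5 rose and 1 fell (median log2 0.16). Besides Gpr183 the list's rises included Itgb7, the beta chain of gut-homing integrins, with 191 and 208 CPM in members, against 71.6 and 96.7 CPM in CD8a-high Ccr2-0 cDC1 (log2 1.19, SE 0.11, adjusted p = 4.11e-08), and Klf2, a factor that drives trafficking receptors, with 670.0 and 847 CPM in members, against 445 and 468 CPM in CD8a-high Ccr2-0 cDC1 (log2 0.66, SE 0.11, adjusted p = 0.000151). Ptger4, a prostaglandin E2 receptor, rose to 54.6 and 55.2 CPM in members, against 30.7 and 39.3 CPM in CD8a-high Ccr2-0 cDC1. Ccr9, the receptor of the gut and thymus chemokine CCL25, had 12.1 and 11.6 CPM in members, against 22.7 and 25.7 CPM in CD8a-high Ccr2-0 cDC1 (log2 -1.09, SE 0.23, adjusted p = 0.00194), the only fall in the list. Itgb7 also passed against CD8a-low Ccr2-0 cDC1, at 106 and 143 CPM (log2 0.65, SE 0.12, adjusted p = 0.00177).

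The cDC1 identity list moved mostly down: 3 of 32 tested genes rose and 17 fell (median log2 -0.35). Cadm1, the adhesion molecule that marks cDC1 across species, had 119 and 133 CPM in members, against 383 and 442 CPM in CD8a-high Ccr2-0 cDC1 (log2 -1.78, SE 0.095, adjusted p = 3.56e-12). Clec9a had 198 and 192 CPM in members, against 309.9 and 358 CPM in CD8a-high Ccr2-0 cDC1 (log2 -0.84, SE 0.085, adjusted p = 1.57e-07), and Itgae, the alpha chain of CD103, 9.53 and 14.3 CPM in members, against 39.4 and 41.1 CPM in CD8a-high Ccr2-0 cDC1 (log2 -1.83, SE 0.29, adjusted p = 9.71e-05). These falls ran from a partial one in Clec9a to larger ones in Cadm1 and Itgae. Cadm1 was detected in 54.6% and 50.7% of members, against 89.9% and 92.4% of the CD8a-high class, at lower depth per member. Cd24a, which cDC1 carry from the precursor stage, had 427 and 374 CPM in members, against 246 and 277 CPM in CD8a-high Ccr2-0 cDC1 (log2 0.56, SE 0.091, adjusted p = 0.000127), and Cd226 rose with its antibody. With CD8a-low Ccr2-0 cDC1 as the other class, only Cadm1 and Cd207 of the list fell and Ckb rose, and the list's median was 0.09.

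Of 28 tested transcription factors, 4 rose and 6 fell (median log2 -0.034). Klf4 had 89.3 and 105 CPM in members, against 48.8 and 47.6 CPM in CD8a-high Ccr2-0 cDC1 (log2 0.95, SE 0.15, adjusted p = 8.28e-05), and Zbtb46, a factor shared by conventional dendritic cells, 41.6 and 45.4 CPM in members, against 56.7 and 62.1 CPM in CD8a-high Ccr2-0 cDC1 (log2 -0.52, SE 0.13, adjusted p = 0.007). Myc and Cebpb were the other genes that rose with Klf2. Id2, which cDC1 need, had 901 and 1001 CPM in members, against 846 and 966 CPM in CD8a-high Ccr2-0 cDC1 (log2 0.0071, SE 0.079, adjusted p = 0.973), and 633 and 811 CPM in CD8a-low Ccr2-0 cDC1 (log2 0.37, SE 0.08, adjusted p = 0.0113). Of 19 precursor and growth factor receptor genes, 3 rose and 2 fell (median log2 -0.20, or -0.15 without Siglech, which had no UMI in members). Cd34, a stem cell and progenitor antigen, had 5.20 and 4.45 CPM in members, against 0.472 and 0.235 CPM in CD8a-high Ccr2-0 cDC1, from 11 UMIs in 10 cells (log2 3.65, SE 0.86, adjusted p = 0.00532). Csf2ra, the GM-CSF receptor chain, had 99.7 and 109 CPM in members, against 154 and 162 CPM in CD8a-high Ccr2-0 cDC1 (log2 -0.67, SE 0.094, adjusted p = 2e-05). Flt3, the receptor that drives dendritic cell development, had 142 and 142 CPM in members, against 161 and 150.3 CPM in CD8a-high Ccr2-0 cDC1 (log2 -0.20, SE 0.096, adjusted p = 0.191). The 21 UMIs of Ly6c2 in a single member were 26.3% of the members' Ly6c2 UMIs.

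Some genes for making cholesterol were higher in members. Of 22 tested synthesis and uptake genes, 8 rose and none fell at an adjusted p under 0.05 (median log2 0.54). Hmgcs1, which starts the mevalonate pathway, had 64.1 and 65.0 CPM in members, against 29.9 and 29.5 CPM in CD8a-high Ccr2-0 cDC1 (log2 1.06, SE 0.16, adjusted p = 4.03e-05). Fdps, a farnesyl diphosphate synthase, had 109 and 143 CPM in members, against 58.7 and 57.0 CPM in CD8a-high Ccr2-0 cDC1 (log2 1.05, SE 0.15, adjusted p = 1.95e-05). Both member libraries sat above both CD8a-high libraries for Hmgcs1 and Fdps. Of 17 LXR and efflux genes, none rose and 3 fell (17.6% called, near the 14.3% of all genes, median log2 0.013): Apoe, the sterol exporter Abcg1 with 23.4 and 27.6 CPM in members, against 36.2 and 36.7 CPM in CD8a-high Ccr2-0 cDC1 (log2 -0.58, SE 0.17, adjusted p = 0.0219), and the sterol-esterifying enzyme Soat1 with 52.9 and 40.1 CPM in members, against 72.2 and 69.6 CPM in CD8a-high Ccr2-0 cDC1 (log2 -0.67, SE 0.12, adjusted p = 0.000286). Abca1, another sterol exporter, had no UMI in members and 15 in the CD8a-high class, too few for the filter, so no fold is given. Against CD8a-low Ccr2-0 cDC1 no synthesis gene was called (median log2 0.20), nor against Ccr2-high CD8a-high cDC1 (median log2 0.18).

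Because the synthesis genes share a known regulator that reads sterol response elements, the letters TCACCCCAC were searched on both strands in RefSeq promoters of GRCm38.p6, 250 bases before to 50 after each start. Of all 32851 promoter windows 0.551% held the letters, a share of windows and not of genes, so it is no direct yardstick for the list. Of the 24 listed genes 17 had a promoter there, and 1 held the letters. That was Hmgcs1, and of the other 4 genes that rose and had a promoter none held them. Its window, chr13:119690101-119690400 on the plus strand, is shown with the matched letters in capitals.
Hmgcs1 promoter: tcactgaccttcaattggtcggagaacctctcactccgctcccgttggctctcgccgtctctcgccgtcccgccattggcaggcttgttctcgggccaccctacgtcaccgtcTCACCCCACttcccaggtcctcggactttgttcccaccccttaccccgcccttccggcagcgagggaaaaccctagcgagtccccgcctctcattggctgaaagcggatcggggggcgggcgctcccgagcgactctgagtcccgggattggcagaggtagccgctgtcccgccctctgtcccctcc

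The list of genes induced by type I interferon had 32 tested, with 14 higher and 1 lower in members (median log2 0.46). Ifi27l2a had 153 and 204 CPM in members, against 38.3 and 47.3 CPM in CD8a-high Ccr2-0 cDC1 (log2 1.99, SE 0.17, adjusted p = 8.19e-09), and Bst2, the virus tether tetherin, 195 and 198 CPM in members, against 113 and 117 CPM in CD8a-high Ccr2-0 cDC1 (log2 0.70, SE 0.098, adjusted p = 1.69e-05). The virus sensor Zbp1 had 39.0 and 56.1 CPM in members, against 18.4 and 30.3 CPM in CD8a-high Ccr2-0 cDC1 (log2 0.90, SE 0.19, adjusted p = 0.00156), while Ly6e fell by 0.21 on the log2 scale. Library 2 stood above library 1 for Ifi27l2a and Zbp1 in both classes. When CD8a-low Ccr2-0 cDC1 were the other class, 3 genes of the list rose, and none was called against Ccr2-high CD8a-high cDC1 (median log2 0.34). Of 15 interferon gamma-inducible genes 2 fell, both chemokines of the receptor CXCR3: Cxcl9 had 141 and 332 CPM in members, against 414 and 536 CPM in CD8a-high Ccr2-0 cDC1 (log2 -1.13, SE 0.14, adjusted p = 4.51e-06), and Cxcl10 8.67 and 33.8 CPM in members, against 45.9 and 41.4 CPM in CD8a-high Ccr2-0 cDC1 (log2 -1.11, SE 0.31, adjusted p = 0.0161). The list's median was -0.46, and its 13.3% called was near the 14.3% of all genes.

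Of 28 immediate early and heat shock genes, 2 rose, 12 fell and the rest were not called (median log2 -0.20). Egr3 had 65.9 and 116 CPM in members, against 243 and 400.1 CPM in CD8a-high Ccr2-0 cDC1 (log2 -1.89, SE 0.14, adjusted p = 1.08e-09), and Nr4a3, an orphan nuclear receptor, 53.7 and 49.9 CPM in members, against 180.5 and 252 CPM in CD8a-high Ccr2-0 cDC1 (log2 -2.11, SE 0.14, adjusted p = 1.79e-10). Fos ran the other way, with 1411 and 1706 CPM in members, against 1121 and 1136 CPM in CD8a-high Ccr2-0 cDC1 (log2 0.40, SE 0.077, adjusted p = 0.000734). Egr2, Egr3, Ier3 and Nr4a3 also fell against CD8a-low Ccr2-0 and against Ccr2-high CD8a-high cDC1, with Nr4a3 at 128 and 121 CPM in CD8a-low Ccr2-0 cDC1 and 98.4 and 150.3 CPM in Ccr2-high CD8a-high cDC1. Among 21 tested genes for cytokines and chemokines, 3 were higher and 4 lower (median log2 -0.24, or -0.21 without 2 genes that had no UMI in members). Tnf had 6.93 and 10.7 CPM in members, against 36.8 and 56.4 CPM in CD8a-high Ccr2-0 cDC1 (log2 -2.47, SE 0.24, adjusted p = 1e-07), and Il12b, the shared chain of interleukins 12 and 23, 5.20 and 7.13 CPM in members, against 27.5 and 33.3 CPM in CD8a-high Ccr2-0 cDC1 (log2 -2.36, SE 0.45, adjusted p = 0.000609). Il1b had 1411 and 1626 CPM in members, against 1118 and 1073 CPM in CD8a-high Ccr2-0 cDC1 (log2 0.40, SE 0.096, adjusted p = 0.00528).

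Of 16 MHC class II pathway genes none rose and 6 fell (median log2 -0.19), with H2-Eb1 at 7147 and 7077 CPM in members, against 8671 and 8656 CPM in CD8a-high Ccr2-0 cDC1 (log2 -0.35, SE 0.054, adjusted p = 5.95e-05). H2-Eb2, a further beta chain, rested on 3 UMIs in members, against 516 in CD8a-high Ccr2-0 cDC1, a log2 ratio of -2.32 with a 95% counting interval of -4.60 to -0.762. Ciita, the master regulator of the pathway, had 232 and 236 CPM in members, against 287 and 317 CPM in CD8a-high Ccr2-0 cDC1 (log2 -0.43, SE 0.079, adjusted p = 0.000514). Of 27 class I pathway genes 3 rose, all of the proteasome or its activator, and 8 fell (median log2 -0.14), among them B2m, the class I light chain, with 1324 and 1443 CPM in members, against 1664 and 1685 CPM in CD8a-high Ccr2-0 cDC1 (log2 -0.34, SE 0.05, adjusted p = 2.79e-05). No gene of either list was called against CD8a-low Ccr2-0 cDC1, where the medians were 0.053 and 0.036. Of 20 costimulatory and coinhibitory genes 4 rose and 5 fell (median log2 -0.25). Cd86 had 160.4 and 159 CPM in members, against 225 and 227 CPM in CD8a-high Ccr2-0 cDC1 (log2 -0.56, SE 0.09, adjusted p = 8.72e-05), and Btla 97.9 and 106 CPM in members, against 165 and 174 CPM in CD8a-high Ccr2-0 cDC1 (log2 -0.80, SE 0.11, adjusted p = 2.31e-05). The CD86 antibody was not called, with means of 119 per 10000 antibody UMIs in members and 112 in CD8a-high Ccr2-0 cDC1 (edgeR adjusted p = 0.984). CD272, the protein of Btla, was called lower, at 88.5 in members and 114 in CD8a-high Ccr2-0 cDC1 (edgeR adjusted p = 0.000226).

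Survival, protease and killer-receptor genes gave mixed counts. Of 18 survival genes 1 rose, Bcl2, and 4 fell (median log2 -0.20). Bcl2a1b, an anti-death member of the BCL2 family with near-identical copies whose reads may be split, had 56.3 and 46.3 CPM in members, against 214 and 243 CPM in CD8a-high Ccr2-0 cDC1 (log2 -2.21, SE 0.14, adjusted p = 5.05e-11). Of 21 serpins, proteases and cystatins 1 rose and 5 fell (median log2 -0.052), with Serpinb6b at 52.0 and 77.5 CPM in members, against 309 and 383 CPM in CD8a-high Ccr2-0 cDC1 (log2 -2.49, SE 0.15, adjusted p = 2.6e-11). Serpinb10 was left out of the list as a given marker. Of 15 killer lectin-like and Fc receptor genes 4 rose and 2 fell (median log2 0.34), with Klrk1, the receptor NKG2D, at 198 and 195 CPM in members, against 68.4 and 62.2 CPM in CD8a-high Ccr2-0 cDC1 (log2 1.53, SE 0.12, adjusted p = 9.96e-10).

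Of the remaining lists, integrin and adhesion genes split 4 up and 6 down of 19 (median log2 -0.14), with Cd81, a tetraspanin, at 222 and 154 CPM in members, against 471 and 457 CPM in CD8a-high Ccr2-0 cDC1 (log2 -1.38, SE 0.12, adjusted p = 1.13e-08). Actin genes split 5 and 6 of 34, C-type lectins 4 and 3 of 15, uptake genes 1 and 3 of 7, and glycolysis genes 4 and 3 of 17. Their medians were 0.012, 0.013, -0.23 and 0.18 on the log2 scale. Toll-like receptor genes had 1 and 1 of 18 called and ribosomal protein genes 5 and 4 of 59, shares of 11.1% and 15.3%, near the 14.3% of all genes. Of 48 oxidative phosphorylation genes 13 rose and none fell at an adjusted p under 0.05 (median log2 0.13), with Uqcrc1, a complex III subunit, at 153 and 143 CPM in members, against 96.9 and 98.1 CPM in CD8a-high Ccr2-0 cDC1 (log2 0.54, SE 0.097, adjusted p = 0.00034).

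**Figure D3:**
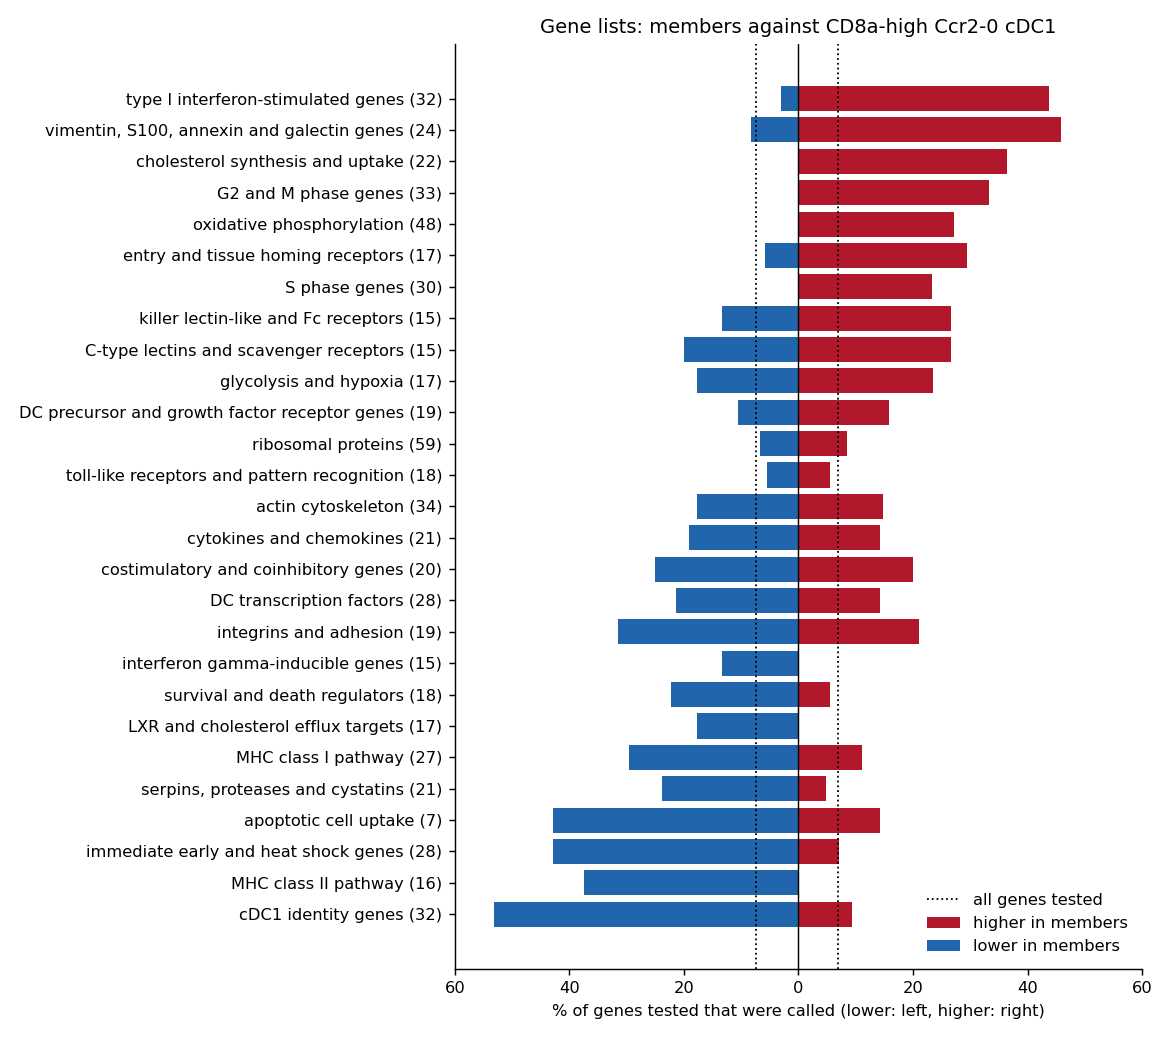
Share of tested genes of each list (number tested in brackets) called higher (right, red) or lower (left, blue) in members than in CD8a-high Ccr2-0 cDC1, in percent, with dotted lines for all genes tested (6.92% higher and 7.36% lower). The interferon and the vimentin and S100 lists lean furthest right and the cDC1 identity list, with 17 of 32 lower, furthest left.

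Some cell-cycle genes were higher than in CD8a-high Ccr2-0 cDC1, and none was called higher than in CD8a-low Ccr2-0 cDC1. Of 33 G2 and M phase genes 11 rose (median log2 0.50) and of 30 S phase genes 7 (median log2 0.29), and none of either list fell at an adjusted p under 0.05. Ube2c, a mitotic ubiquitin-conjugating enzyme, had 243 and 199.5 CPM in members, against 134 and 117 CPM in CD8a-high Ccr2-0 cDC1 (log2 0.76, SE 0.14, adjusted p = 0.000672), and Mcm5, a helicase subunit of replication, 71.1 and 80.2 CPM in members, against 49.6 and 46.2 CPM in CD8a-high Ccr2-0 cDC1 (log2 0.59, SE 0.14, adjusted p = 0.00439). Against CD8a-low Ccr2-0 cDC1 no S phase gene rose and 5 fell, and no G2 and M gene was called (medians -0.33 and 0.093). After each cell was thinned to 3000 UMIs, 66.9% and 66.0% of members had at least 2 UMIs over both lists, against 62.6% and 55.4% of CD8a-high Ccr2-0 cDC1 and 69.7% and 60.3% of CD8a-low Ccr2-0 cDC1. Unthinned shares were 93.8% and 90.8% of members, against 90.1% and 86.3% of CD8a-high Ccr2-0 cDC1. The thinned shares leave out cells under 3000 UMIs. These were 0 and 1 of the members, 163 and 346 CD8a-high Ccr2-0 cells and 64 and 49 CD8a-low Ccr2-0 cells. Of 137 and 159 B cells of the libraries, with median depths of 2627 and 2056 UMIs, 78 and 106 were left out. Among the 59 and 53 B cells that remained, 52.5% and 49.1% had at least 2 UMIs over both lists after thinning. With 2 libraries the shares have no test.

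The markers were also read in cycling members apart from the others. Among members with at least 0.1% of their UMIs in the cycle lists, 50 and 53 cells, Vim stood at 903.2 and 1124 CPM, against 1254 and 1067 CPM in the other 80 and 89 members. Anxa2 stood at 327.6 and 349.2 CPM in cycling members, against 458.1 and 409.4 CPM in the others. Ahnak stood at 185 and 198 CPM in cycling members, against 285 and 323 CPM in the others, and S100a6 at 131 and 228 CPM in cycling members, against 305 and 300.1 CPM in the others. Without cycling cells in any class, 1203 genes were called against CD8a-high Ccr2-0 cDC1. The cut of 0.1% was met by 38.5% and 37.3% of members and by 37.2% and 42.8% of the shallower B cells. Cycling here names that cut, and whether it separates dividing cells was not tested.

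Within the gate, members with the least CD8a had more Vim, S100a6 and Anxa2. The 63 and 61 members with 0 to 10 CD8a UMIs had Vim at 1513 and 1520.4 CPM, against 799.9 and 850.2 CPM in the 67 and 81 members with 11 to 25. S100a6 stood at 326.5 and 452.7 CPM in the first of these bands, against 153.3 and 161.9 CPM, and Anxa2 at 461.0 and 612.6 CPM, against 353.2 and 251.3 CPM. Cadm1 overlapped, at 125.9 and 118.1 CPM against 113.9 and 141.0 CPM. Just inside the CD8a limit, the 17 and 27 members with 21 to 25 UMIs had Vim at 492.3 and 896.2 CPM, and just outside it the 16 and 15 Ccr2-high cells with 26 to 30 had 469.2 and 545.3 CPM. At the Ccr2 limit, the 65 and 76 members with 3 Ccr2 UMIs had Vim at 963.5 and 1165 CPM, and the 123 and 127 CD8a-low cells with 2 had 949.8 and 863.3 CPM. Vim on either side of the CD8a limit differed by less in library 1 than in library 2, and at the Ccr2 limit likewise.

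The genes whose pattern was most like that of Ccr2 over the 18 sums of the 9 classes and 2 libraries were Macroh2a1 (Pearson r = 0.948), Clic1 (0.912), Kctd14 (0.910), Efcab11 (0.890) and Esyt1 (0.887) on log2(CPM + 1). Since Ccr2 itself defined the classes, this is a description, and the sums share libraries. Clic1 encodes a chloride intracellular channel protein, Macroh2a1 a histone H2A variant and Esyt1 a membrane tether.

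Surface levels were tested over 169 antibodies, without XCR1, CD172a and CD8a, and are given per 10000 antibody UMIs. Against CD8a-high Ccr2-0 cDC1, 44 antibodies were called by edgeR (26% of those tested), 21 higher and 23 lower in members (12.4% and 13.6%). The highest of the isotype controls stood at 2.91 per 10000 once IgG1_Rat_l was set aside, and 20 of the higher and 21 of the lower antibodies were above it in the higher class, IgG1_Rat_l counted among the lower. IgG1_Rat_l, itself an isotype control, had 2.13 per 10000 in members and 5.68 in CD8a-high Ccr2-0 cDC1, where 57.2% of its UMIs were in 1 cell, and its log2 fold change was -0.186 in library 1 alone. Scaled by isotype UMIs instead, 16 antibodies were called, 7 higher and 9 lower.

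CD226, CD43 and CD300LG were among the 8 antibodies that rose most. CD226, an activating receptor for nectin-family ligands, had 85.5 and 77.5 per 10000 in members, against 11.3 and 10.5 in CD8a-high Ccr2-0 cDC1 (log2 2.81, SE 0.097, adjusted p = 1.83e-10). Per cell that was a median of 7 and 5 UMIs in members, against 1 and 1 in CD8a-high Ccr2-0 cDC1, with at least 1 UMI in 96.2% and 93.0% of members, against 58.4% and 53.3% of CD8a-high Ccr2-0 cDC1. CD43, the sialophorin encoded by Spn, had 301 and 279.6 per 10000 in members, against 71.4 and 75.8 in CD8a-high Ccr2-0 cDC1 (log2 1.88, SE 0.11, adjusted p = 2.88e-08), with medians of 24 and 20.5 UMIs in members, against 6 and 5 in CD8a-high Ccr2-0 cDC1. CD43 had at least 1 UMI in every member and in 96.8% and 95.9% of CD8a-high Ccr2-0 cDC1. CD300LG, a receptor known from vessel walls, had 6.44 and 4.56 in members, against 0.492 and 0.479 in CD8a-high Ccr2-0 cDC1 (log2 3.38, SE 0.38, adjusted p = 1.08e-05), and at least 1 UMI in 34.6% and 22.5% of members, against 5.62% and 4.501% in CD8a-high Ccr2-0 cDC1.

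CD11b, CD115, CD317 and CD22 were the others that rose most and are reported. CD11b, an integrin of myeloid cells and cDC2, had 158 and 148 per 10000 in members, against 45.1 and 37.4 in CD8a-high Ccr2-0 cDC1 (log2 1.80, SE 0.078, adjusted p = 1.42e-09). cDC2 stood at 861.5 and 796.5, so members lay between. CD115, the receptor of M-CSF, had 13.7 and 14.6 in members, against 3.66 and 4.58 in CD8a-high Ccr2-0 cDC1 (log2 1.69, SE 0.24, adjusted p = 0.000105), and CD317, the protein of Bst2, 24.4 and 28.4 in members, against 8.63 and 10.2 in CD8a-high Ccr2-0 cDC1 (log2 1.39, SE 0.15, adjusted p = 7.33e-06). CD22, a sialic acid-binding lectin of B cells, had 16.5 and 21.7 in members, against 6.22 and 5.87 in CD8a-high Ccr2-0 cDC1 (log2 1.55, SE 0.15, adjusted p = 4.16e-06). CD22 and CD317 did not pass when isotype UMIs set the scale, at adjusted p = 0.0711 and 0.151 in the same edgeR test. CD117, the protein of Kit, and CD135, the protein of Flt3, both growth factor receptors of precursors, had 238 and 269 in members against 156 and 184 in CD8a-high Ccr2-0 cDC1 (log2 0.48, SE 0.073, adjusted p = 0.000173) and 9.10 and 11.2 in members against 6.43 and 6.98 in CD8a-high Ccr2-0 cDC1 (log2 0.49, SE 0.15, adjusted p = 0.0252).

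Among antibodies that fell, CD38, an enzyme that consumes NAD, had 61.7 and 80.3 per 10000 in members, against 216 and 237 in CD8a-high Ccr2-0 cDC1 (log2 -1.78, SE 0.086, adjusted p = 3.78e-09). Its median was 4.5 and 4 UMIs in members, against 22 and 22 in CD8a-high Ccr2-0 cDC1. CD201, the endothelial protein C receptor, had 5.32 and 11.7 in members, against 32.6 and 38.8 in CD8a-high Ccr2-0 cDC1 (log2 -2.22, SE 0.45, adjusted p = 0.00196). Both were lower in each member library, with CD201 the more variable between libraries. CD39, an enzyme that degrades extracellular ATP, had 61.1 and 78.0 in members, against 133 and 175 in CD8a-high Ccr2-0 cDC1 (log2 -1.25, SE 0.11, adjusted p = 1.86e-06), and CD1d, which presents lipids, 131 and 93.3 in members, against 248 and 188 in CD8a-high Ccr2-0 cDC1 (log2 -1.06, SE 0.062, adjusted p = 2.1e-08). Without the library term CD1d had an edgeR adjusted p = 0.0537. ESAM, an adhesion molecule, had 1.29 and 1.40 in members, against 5.41 and 5.13 in CD8a-high Ccr2-0 cDC1 (log2 -2.07, SE 0.26, adjusted p = 3.7e-05), CD207 2.49 and 2.61 in members, against 10.5 and 7.75 in CD8a-high Ccr2-0 cDC1 (log2 -1.93, SE 0.33, adjusted p = 0.000483), and CD20 1.03 and 1.02 in members, against 3.63 and 2.44 in CD8a-high Ccr2-0 cDC1 (log2 -1.65, SE 0.31, adjusted p = 0.00115). ESAM, CD20 and CD207 were below 2.91 in members, and the means of CD300LG, ESAM and CD20 did not reach 5.68 in either class.

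**Figure D4:**
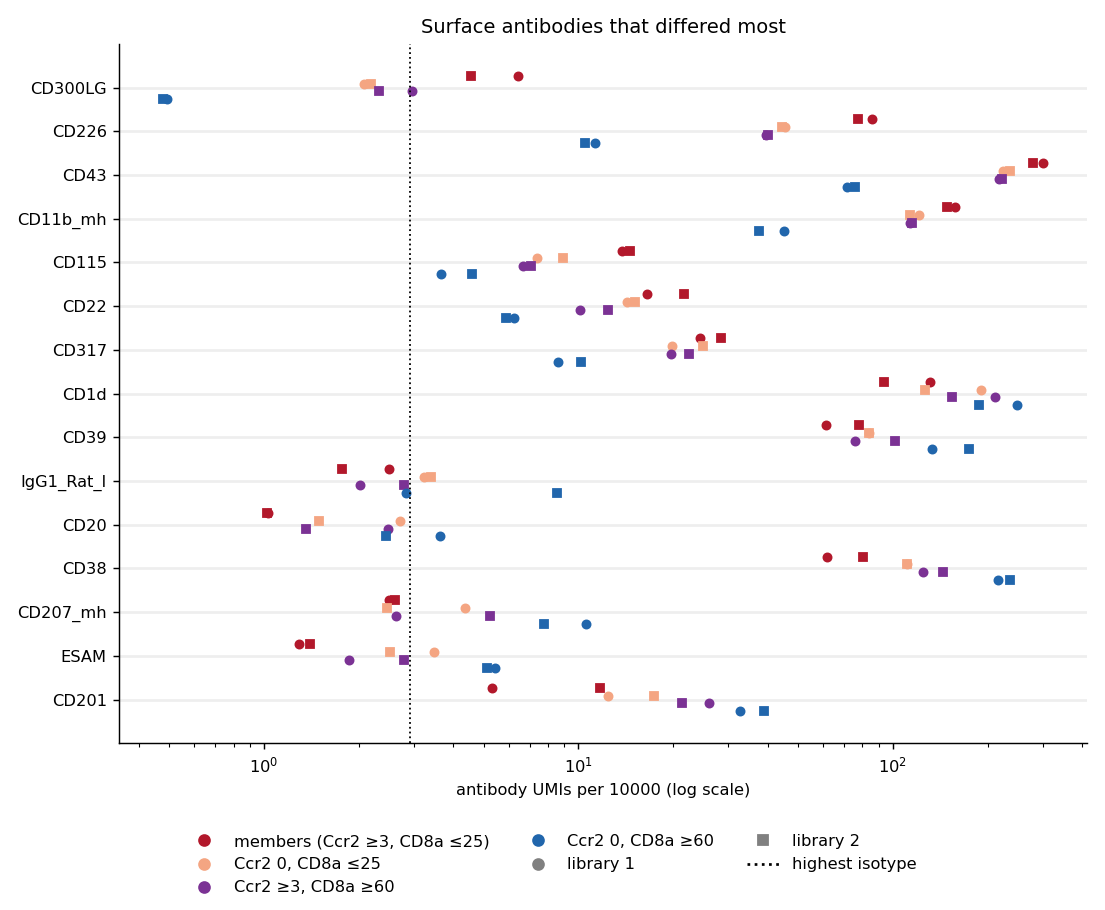
Antibody level per 10000 antibody UMIs (x axis, log scale) of 7 of the 8 antibodies that rose most and the 8 that fell most in members, by class (colour) and library (marker shape), with a dotted line at the highest isotype control. CD226 sits at 85.5 and 77.5 in members and at 11.3 and 10.5 in CD8a-high Ccr2-0 cDC1, with the other classes between.

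Against CD8a-low Ccr2-0 cDC1, 22 of 169 antibodies were called, 12 higher and 10 lower (13%, 7.1% and 5.92%). CD226 had 45.4 and 44.3 per 10000 in that class (log2 0.90, SE 0.092, adjusted p = 2.88e-05) and CD38 111 and 111 (log2 -0.61, SE 0.084, adjusted p = 0.000246). CD43 had 224 and 236 (log2 0.38, SE 0.11, adjusted p = 0.0402), CD11b 121 and 113 (log2 0.43, SE 0.076, adjusted p = 0.0021) and CD1d 189.9 and 127 (log2 -0.45, SE 0.061, adjusted p = 0.000246). In each library the class lay between members and CD8a-high Ccr2-0 cDC1 for all 5. CD317 and CD39, at edgeR adjusted p = 0.309 and 0.213, were not called. Without the library term 6 of 169 were called, 1 higher and 5 lower, and scaled by isotype UMIs 4, all lower. Ccr2-high CD8a-high cDC1 had CD226 at 39.5 and 40.1 per 10000.

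Surface and RNA could be paired for 38 of the called antibodies above the isotypes. Of their genes 36 were tested and 22 called, all 22 in the direction of the antibody. Of all genes tested 14.3% were called. These pairs were picked by a called antibody, so genes called without one are not counted. The antibodies CD86 and Ly6C stood above the isotypes but were not called (edgeR adjusted p = 0.984 and 0.323). Their genes were called, Cd86 lower and Ly6c2 higher (edgeR adjusted p = 8.72e-05 and 0.0141). Cd226 RNA had 7.80 and 16.9 CPM in members, against 1.48 and 1.73 CPM in CD8a-high Ccr2-0 cDC1 (log2 2.85, SE 0.45, adjusted p = 7.02e-05), and Spn 21.7 and 14.3 CPM in members, against 3.59 and 3.85 CPM in CD8a-high Ccr2-0 cDC1 (log2 2.20, SE 0.30, adjusted p = 1.06e-05). Cd38 RNA had 11.3 and 8.91 CPM in members, against 33.3 and 38.2 CPM in CD8a-high Ccr2-0 cDC1. Procr, which encodes CD201, had 5.20 and 8.91 CPM in members, against 24.7 and 26.8 CPM in CD8a-high Ccr2-0 cDC1, and Entpd1, which encodes CD39, 11.3 and 12.5 CPM in members, against 36.2 and 42.6 CPM in CD8a-high Ccr2-0 cDC1. All 3 were called, so these surface falls had a fall of RNA beside them. Itgam RNA was near its limit, with 4 UMIs in 3 members and 3.47 and 0 CPM in members, against 0.882 and 0.790 CPM in CD8a-high Ccr2-0 cDC1 (adjusted p = 0.612 by edgeR), while CD11b had at least 1 UMI on 99.2% and 98.6% of members and 95.8% and 91.4% of CD8a-high Ccr2-0 cDC1. Kit had 73.7 and 66.8 CPM in members, against 68.2 and 76.2 CPM in CD8a-high Ccr2-0 cDC1 (log2 -0.10, SE 0.12, adjusted p = 0.635), and with Flt3 it did not pass the test that CD117 and CD135 passed. Csf1r had 9.53 and 3.56 CPM in members, against 1.80 and 2.05 CPM in CD8a-high Ccr2-0 cDC1 (adjusted p = 0.0649 by edgeR).

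**Figure D5:**
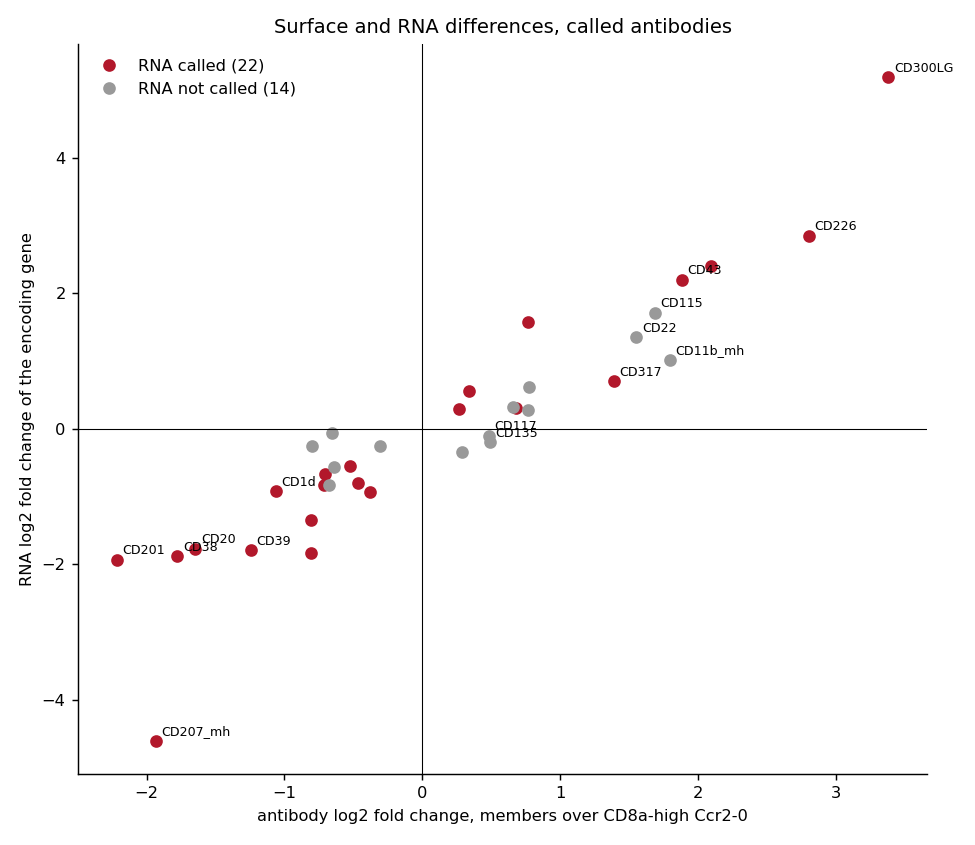
Log2 fold change of the antibody (x axis) and of the RNA of its gene (y axis), members over CD8a-high Ccr2-0 cDC1, for the 36 called antibodies above the isotypes whose gene was tested. The 22 with a called RNA (red) lie in the 2 quadrants of equal sign, and CD11b, CD115 and CD22 are among the 14 whose RNA was not called (grey).

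The CCR2 protein itself, antibody CD192, stayed below 2.91 per 10000, the level of the highest isotype control in members. CD192 had 1.29 and 1.21 per 10000 in members, against 0.808 and 0.842 in CD8a-high Ccr2-0 cDC1 (log2 0.50, SE 0.31, adjusted p = 0.323), with at least 1 UMI in 11.5% and 8.45% of members, against 8.71% and 8.25% in CD8a-high Ccr2-0 cDC1. In cDC2 it stood at 1.29 and 1.14. A surface difference in CCR2 was therefore not detectable with this antibody at this depth.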

How the data were processed

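RNA and surface antibodies were measured by CITE-seq (10x 3' libraries) in 2 libraries, told apart by barcode suffix; no label ties a suffix to a replicate number. The authors deposited 1 aggregated matrix of raw UMI counts, made with Cell Ranger (software version 3.1.0, per the file headers); the submitters' processing notes also name STAR, Seurat 3.1.4 and mm10. Nothing used here states whether aggregation equalised depth. Libraries 1 and 2 held 13822 and 17968 barcodes, 99617992 and 129565040 RNA UMIs, and 13667427 and 17153368 antibody UMIs; 12712 and 17040 cells passed the filter.

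Counts were summed over 9 classes (Ccr2 0, 1 to 2 or at least 3 UMIs by CD8a at most 25, 26 to 59 or at least 60), at least 30 cells each, per library. The 18 sums were fitted together with edgeR 4.0.16 (TMM, filterByExpr, quasi-likelihood F test, two-sided, library block, 8 residual degrees of freedom, Benjamini-Hochberg). Intervals are exact Clopper-Pearson and cover counting error only. The pairing comes from the classes of a library being the same loaded cells; across 10181 genes, library differences of members correlated with those of CD8a-high Ccr2-0, CD8a-low Ccr2-0 and Ccr2-high CD8a-high cDC1 at r = 0.149, 0.116 and -0.0073. Ccr2, Ccr7, the genes of gated antibodies and the given markers were kept out of calls. cDC2 here had at least 5 CD172a, 5 CD11c and 20 I-A/I-E antibody UMIs and at most 1 XCR1; B cells had at least 3 Cd79a UMIs. Named genes are the 12 largest changes each way with at least 20 CPM and 1 sign in both libraries; named antibodies, the 8 each way above the isotypes, with IgG1_Rat_l left out of that limit after its values were seen but kept among the 8 lower. Of these, 1 gene and 1 antibody are counted but not reported here. The members and lists were chosen with earlier results of these data known. Scripts were tested on simulated sums. DESeq2 1.42.0 and Scrublet (scanpy 1.11.5) served alternatives.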

Additional observations from a re-analysis of the deposited data

How the results depend on the processing

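The 24 named genes kept their direction under every alternative run and their call under each that had a test, and the 16 named antibodies kept their direction, with 6 lost calls (CD22 and CD317 with isotype UMIs as library size, CD1d without the library term, and IgG1_Rat_l with the CD8a share gate, Ccr2 at least 4 and no cycling cells). The named genes were picked with 1 sign in both libraries, so leaving out a library could not turn their direction. Genes and antibodies were also picked as the largest called changes, so their stability does not carry over to the other calls. Counts within 1.5 times of those reported are not listed. Against CD8a-high Ccr2-0 cDC1, genes called numbered 924 with no replicate block and 865 with Ccr2 at least 4 UMIs (chosen after seeing the data, as was leaving out cells with over 10 erythroid UMIs), and antibodies 16 with isotype UMIs, a scale that moved the median of all antibodies to log2 -0.22, from 0.029. Against CD8a-low Ccr2-0 cDC1, genes numbered 74 with no replicate block, 152 with the RNA identity filter, 146 within 5000 to 12000 RNA UMIs, 140 with the CD8a share gate, 183 without erythroid RNA and 509 with no filter on low counts, and antibodies 6 with no replicate block, 14 without doublets, 5 within the depth window and 4 with isotype UMIs. Against Ccr2-high CD8a-high cDC1, genes numbered 20 with no replicate block, 156 without erythroid RNA, 145 with DESeq2 and 237 with no filter. The causes were not tested. The cycling shares without thinning were 93.8% and 90.8% in members, against 90.1% and 86.3% in CD8a-high Ccr2-0 cDC1, and within the depth window 92.5% and 90.7%, against 92.4% and 89.3%. Leaving out a library leaves no residual degrees of freedom, so its values have no test. Ccr2 at least 5 was not run, with 27 members in library 2, nor was the Ccr2-high CD8a-high comparison where under 30 such cells remained in a library (the depth window, the CD8a share gate, Ccr2 at least 4 and no cycling cells). Depth limits genes with few member UMIs, such as Cd207 with 3 and Itgam with 4.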
